A study of Mus musculus with 48 samples.

Results

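Bone marrow and spleen of untreated mice were compared by bulk RNA sequencing. The comparison took the 8 columns of the study's gene count table that carry the bone marrow name and the 8 that carry the spleen name, 16 of the 48 samples of the series. All mice belonged to a strain labelled QPCTL-KO C57/Bl6JR, were 10 to 15 weeks old and had received no tumour cells. For each tissue the labels list 4 animals homozygous for the QPCTL knockout allele and 4 wild-type littermates. QPCTL is a Golgi enzyme that cyclises the first glutamine of proteins such as CD47. Each column is named by its tissue and a number from 1 to 8, with no genotype, so both genotypes were pooled on each side. Libraries are called here by that number, which matches no sample's title; whether a bone marrow and a spleen column came from the same mouse cannot be read from it. The p-values therefore measure the spread between these samples only.

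Bone marrow is the organ in which adult blood cells are made. Neutrophils mature there in steps: promyelocytes fill primary granules with proteases and myeloperoxidase, myelocytes and metamyelocytes make secondary and tertiary granules with lactoferrin, lipocalin and gelatinase, and the mature cells are stored before release. The spleen filters blood through its red pulp, where macrophages take up old red cells and recycle their iron. Its white pulp holds B and T lymphocytes around arteries, bordered by a marginal zone with its own B cells and macrophages and held in place by a stromal network. In the mouse the spleen also makes red cells. In bulk tissue, fewer cells of a type and less RNA per cell cannot be told apart.

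The depth and the strand of the counts limit what can be read. Library totals ran from 227240 to 637985 counts in bone marrow (median 424438) and from 219229 to 626316 in spleen (median 321211), beside 18 M reads per sample on average in the labels. Between 62.1% and 79.7% of the counts of a library lay on genes that share at least 50 exonic bases with a coding gene of the other strand. Of 812 antisense rows opposite a single coding gene with at least 100 counts in the pair, 579 (71.3%) held more counts than the coding gene, with a median ratio of 2.93, and the light-strand gene mt-Nd6 had 81062 counts against 18466 for 9 heavy-strand genes together (without mt-Nd5). The sources used here do not name the counting tool or its strand setting. A gene's own row may therefore not measure that gene alone, and whether its reads were counted on the row opposite was not tested. For some genes below the row opposite is given as a separate row of the table. In 3 spleen libraries the profile stood apart: the median Spearman correlation with the other spleen libraries was 0.773, 0.624 and 0.771 for spleen libraries 5, 6 and 8, against 0.886 to 0.895 for the other 5. These 3 libraries differed in the sums of marker genes given below, and several counts are also given without them, an alternative chosen after the data were seen. The correlations that set them apart were taken over the tested genes themselves. Calls and p-values without them are therefore descriptions only. Qpctl, the targeted gene, was at 12.2 to 32.0 CPM (counts scaled to library size; median 23.6) in bone marrow and 12.3 to 58.1 (median 28.3) in spleen, from 78 and 76 counts in all, and was too low to be tested. It shares 471 exonic bases with Fbxo46 on the other strand, so these values do not check the genotype labels, and its relative Qpct had 1 and 2 counts.

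Of 4239 genes with enough counts to be tested, 930 (21.9%) differed between the tissues at an adjusted p below 0.05 and at least 2-fold, which is called a difference from here on (edgeR's quasi-likelihood test with Benjamini-Hochberg adjustment). In bone marrow 532 genes were higher (12.6% of those tested) and in spleen 398 (9.39%). Fold changes are on the log2 scale with bone marrow over spleen, so that a negative value means higher in spleen; the median over all tested genes was 0.04. For 366 genes (8.63%) every bone marrow library lay above every spleen library, and for 154 genes (3.63%) every spleen library lay above. By the adjusted p alone 1598 genes differed (37.7%), 850 (20.1%) higher in bone marrow and 748 (17.6%) in spleen. Among the 2213 tested genes without opposite-strand coding exons 507 were called (22.9%), 348 (15.7%) higher in bone marrow and 159 (7.18%) in spleen, and among the 2021 with such exons 419 (20.7%), 182 (9.01%) in bone marrow and 237 (11.7%) in spleen, so that the share of calls higher in bone marrow was 68.6% without such exons and 57.2% over all genes. Without the 3 spleen libraries, on the same genes, 608 (14.3%) were higher in bone marrow and 444 (10.5%) in spleen, and 836 of the 930 calls were kept in the same direction. A wider test of the 13873 genes with at least 1 CPM in at least 8 libraries is used for list members too low for the first test. At these library totals a single count exceeds 1 CPM, so this filter asks only for 1 count in each of at least 8 libraries. It called 1382 (9.96%) higher in bone marrow and 1589 (11.5%) in spleen, and without the 3 spleen libraries 1658 (12%) and 1789 (12.9%). A low gene passes a filter mostly through the tissue in which it is high, so the counts of list members are descriptions to be read beside these shares.

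**Figure D1:**
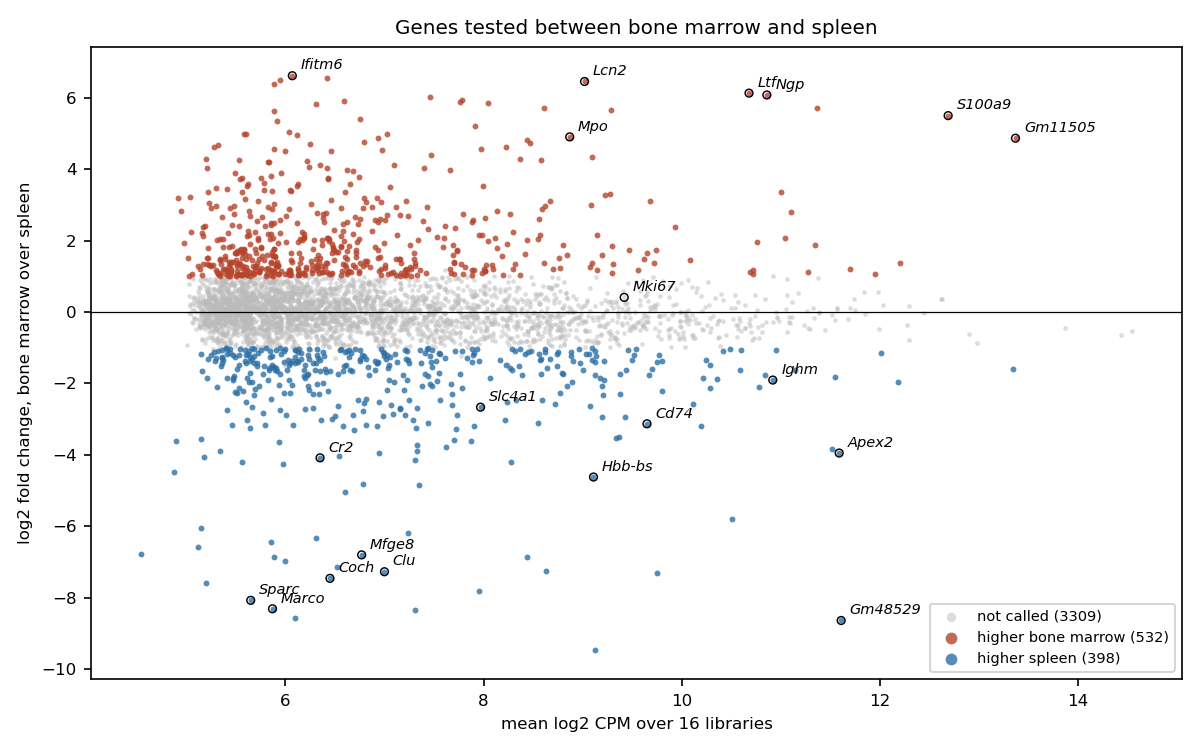
Each point is 1 of the 4239 tested genes, with its mean log2 CPM over the 16 libraries on the x axis and its log2 fold change, bone marrow over spleen, on the y axis. The 532 genes higher in bone marrow are red and the 398 higher in spleen blue; the neutrophil genes Lcn2, Ltf and Ngp lie above 6 and the spleen genes Marco, Sparc, Coch and Clu below -7.

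Genes of neutrophil granule proteins were far higher in bone marrow. All 13 genes of the secondary and tertiary granule list passed the filter and all 13 were higher in bone marrow, with a median log2 fold change of 5.81, and 4 of the 5 tested primary granule genes were higher, with a list median of 4.90. Their start regions are printed first, because the members move together, and some hold short words that factors of granulocyte development are known to bind. All bases are from RefSeq on GRCm38.p6, 5′ to 3′ on the strand of the gene; capitals mark the match. Matches were searched on both strands in the 250 bases before the RefSeq start, and only the bases outside the gene model of the count table are printed. The word TTGCNCAA (N is any base), bound by C/EBP factors, was found before 5 of the 13 called secondary and tertiary granule genes (Ngp, Ltf, Lcn2, Mmp8 and Fcnb) and before 2.61% of all 32851 windows of this length.
Ngp, chr9:110419558-110419746, plus strand: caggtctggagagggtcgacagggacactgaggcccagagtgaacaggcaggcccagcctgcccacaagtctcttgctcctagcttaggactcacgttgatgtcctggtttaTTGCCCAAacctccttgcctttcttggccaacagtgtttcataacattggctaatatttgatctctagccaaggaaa
Ltf, chr9:111019042-111019270, plus strand: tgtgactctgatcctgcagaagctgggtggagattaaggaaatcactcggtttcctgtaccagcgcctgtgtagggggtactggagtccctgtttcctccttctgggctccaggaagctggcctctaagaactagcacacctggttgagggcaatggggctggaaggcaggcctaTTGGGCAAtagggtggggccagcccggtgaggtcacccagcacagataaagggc
Mmp8, chr9:7558179-7558428, plus strand: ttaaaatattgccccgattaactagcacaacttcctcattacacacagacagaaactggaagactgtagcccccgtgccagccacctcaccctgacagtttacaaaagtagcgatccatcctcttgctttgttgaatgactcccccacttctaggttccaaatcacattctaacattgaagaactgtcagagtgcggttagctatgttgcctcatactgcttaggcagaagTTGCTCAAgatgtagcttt
Fcnb, chr2:28084886-28085128, minus strand: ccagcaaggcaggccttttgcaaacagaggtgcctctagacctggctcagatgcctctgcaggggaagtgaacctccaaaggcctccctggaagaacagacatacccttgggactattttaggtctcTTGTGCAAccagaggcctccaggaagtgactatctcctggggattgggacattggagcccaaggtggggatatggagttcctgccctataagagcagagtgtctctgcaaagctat

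The match begins 138 bases before the RefSeq start in Ngp, which holds another match 11 bases before it, 75 bases before in Ltf, 19 in Mmp8 and 123 in Fcnb. None of the 4 called primary granule genes and none of the 6 matched mature neutrophil genes held TTGCNCAA, nor did 8 of the 13 secondary and tertiary granule genes. The word GAGGAAGT, bound by PU.1, was found before 3 of these 4 genes (Mpo, Elane and Prtn3), before 2 of the 13 secondary and tertiary granule genes, before 1 of the 6 matched mature neutrophil genes and before 2.44% of all windows.
Mpo, chr11:87793534-87793580, plus strand: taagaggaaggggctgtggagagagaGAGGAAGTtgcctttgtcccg
Elane, chr10:79886062-79886246, plus strand: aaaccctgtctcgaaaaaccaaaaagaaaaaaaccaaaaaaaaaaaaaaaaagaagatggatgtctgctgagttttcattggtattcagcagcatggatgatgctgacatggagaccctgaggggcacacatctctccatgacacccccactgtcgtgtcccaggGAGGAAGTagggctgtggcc

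In Mpo the word begins 224 bases before the RefSeq start and in Elane 85. These matches describe the printed letters only, and binding was not measured. Words for EBF1 and for GATA factors were also searched and are not printed. The EBF1 word was found before 0 of 5 matched mature B cell genes and 0.779% of all windows. The GATA word was found before 2 of 4 matched erythroid genes and 9.99% of all windows. It was also found before 3 of the 13 secondary and tertiary granule genes and 1 of the 6 matched mature neutrophil genes.

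Ngp, neutrophilic granule protein (chr9:110419747-110423012 on GRCm38), was at 2005 to 5080 CPM in bone marrow (median 3581) and at 0 to 249 in spleen (median 13.2). The lowest marrow library thus stood far above the highest spleen library. The log2 fold change was 6.08 ± 0.616 (adjusted p = 5.13e-08, edgeR's quasi-likelihood test with Benjamini-Hochberg adjustment, as for all adjusted p-values below). Here and below, the value after ± is the absolute log2 fold change divided by the square root of the test's F statistic. It is not a directly estimated standard error and may be too small where a tissue has only a few counts. Ltf, lactoferrin, the iron-binding protein of secondary granules (chr9:111019271-111042767), was at 1889 to 4433 CPM (median 3162) in bone marrow and 0 to 268 (median 13.1) in spleen. Its groups did not overlap either, and the fold change was 6.13 ± 0.669 (adjusted p = 1.48e-07). Lcn2, lipocalin 2, which binds bacterial siderophores, had 600 to 1553 CPM (median 984) against 0 to 34.1 (median 6.02). The fold change of Lcn2, 6.45 ± 0.404 (adjusted p = 4.09e-11), had the smallest value after ± of these 3. Spleen library 6 held the highest spleen values of Ngp, Ltf and Lcn2. Without it the fold change was 6.96 for Ngp and 7.49 for Ltf. Camp, the cathelicidin peptide, was at 768 to 1591 CPM in bone marrow and 0 to 97.5 in spleen, a fold change of 5.65 that was 6.28 without spleen library 6.

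The other 9 members of the list lay between 4.50 and 6.61. The highest was Ifitm6, an interferon-induced transmembrane family member, with 49.6 to 221 CPM in bone marrow (median 122) and at most 3.60 in spleen (6.61 ± 0.523, adjusted p = 1.32e-09). Mmp8, neutrophil collagenase, was at 183 to 425 CPM (median 347) against 0 to 27.8 (median 0), a fold change of 6.02 that was 7.93 without spleen library 4, which held its highest spleen value. Cd177, a surface protein of neutrophils, had a fold change of 5.88, and Itgb2l, an integrin beta chain gene, 5.81. Chil3, a chitinase-like protein, had 5.71, or 6.68 without spleen library 6, and Fcnb, the lectin ficolin B, 5.34, or 6.27 without that library. Anxa1 (4.81), Pglyrp1 (4.88), a peptidoglycan-binding protein, and Padi4 (4.50), the enzyme that citrullinates histones in neutrophils, closed the list. The groups of all 13 genes were without overlap. Without the 3 spleen libraries all 13 remained called and the list median was 6.58.

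Mpo, myeloperoxidase of primary granules (chr11:87793581-87804413), was at 548 to 1360 CPM in bone marrow (median 862) and 0 to 176 in spleen (median 8.69). All marrow libraries lay above all spleen libraries, with a log2 fold change of 4.90 ± 0.631 (adjusted p = 1.56e-06), or 6.24 without spleen library 6. The antisense row Gm11505, which shares 512 bases with Mpo on the other strand, held more counts than Mpo: 12350 to 25660 CPM in bone marrow (median 20650) and 32.4 to 4260 in spleen (median 88.4). Its fold change was 4.87 ± 0.841 (adjusted p = 7.39e-05), close to that of Mpo, and 6.64 without spleen library 6, the only spleen library above 590 CPM. The serine proteases of the same granules behaved alike: Elane, neutrophil elastase, was at 139 to 393 CPM against 0 to 34.1 (4.98 ± 0.456, adjusted p = 1.17e-08, or 5.62 without spleen library 6), and Ctsg, cathepsin G, at 79.3 to 204 against 0 to 14.6 (4.96 ± 0.448). Prtn3, proteinase 3, which shares 159 bases with Plppr3 on the other strand (0.41 ± 0.176), had a fold change of 3.94, or 4.92 without spleen library 6. Ms4a3, a marker of granulocyte and monocyte progenitors, was tested only in the wider test, where it was higher in bone marrow (5.72 ± 0.588, adjusted p = 3.29e-09). Prss57, another granule protease, differed less on its own row. That row was at 203 to 274 CPM against 86.4 to 155, without overlap, but the fold change of 0.94 ± 0.167 (adjusted p = 0.000109) was under 2-fold; without spleen library 2 it was 1.002 and was called. Fstl3, the gene that shares 1157 bases with it on the other strand, was at 406 to 781 CPM against 0 to 97.5, with a fold change of 4.62 ± 0.483, or 5.28 without spleen library 6.

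Genes of mature neutrophils were higher in bone marrow in all 7 tested members, with a median of 5.50. All 14 of the list were called in the wider test, which called 9.96% of its genes higher in bone marrow. A member without spleen counts, such as Ly6g, could pass that filter only through bone marrow, so this count is a description. S100a9 and S100a8, the calprotectin subunits that fill the neutrophil cytosol, were the most abundant: S100a9 was at 7905 to 17460 CPM in bone marrow (median 12670) and 24.6 to 950 in spleen (median 190). S100a8 was at 2655 to 7876 CPM (median 5103) against 6.14 to 380 (median 53.3). For neither gene did the tissues overlap, with fold changes of 5.50 ± 0.515 for S100a9 and 5.71 ± 0.531 for S100a8, the latter 6.32 without spleen library 6. Mmp9, gelatinase B of tertiary granules, was at 298 to 643 CPM against 0 to 27.8 (5.84 ± 0.402, or 6.46 without spleen library 4), and Retnlg, a resistin-like peptide, at 216 to 641 against 0 to 19.5 (5.94 ± 0.409). The receptors changed less: Cxcr2, the chemokine receptor of mature neutrophils, had 3.78 ± 0.346 and Csf3r, the receptor for G-CSF, 3.98 ± 0.329. Ly6g, the surface marker by which mouse neutrophils are sorted, had 122 counts in bone marrow and 0 in spleen, which makes it at least 30-fold higher in bone marrow, taking 3 counts over the 8 spleen libraries as the floor. The summed level of the 14 genes was 11510 to 27160 CPM in bone marrow and 30.7 to 1457 in spleen, where library 6 was highest and library 8 lowest.

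**Figure D2:**
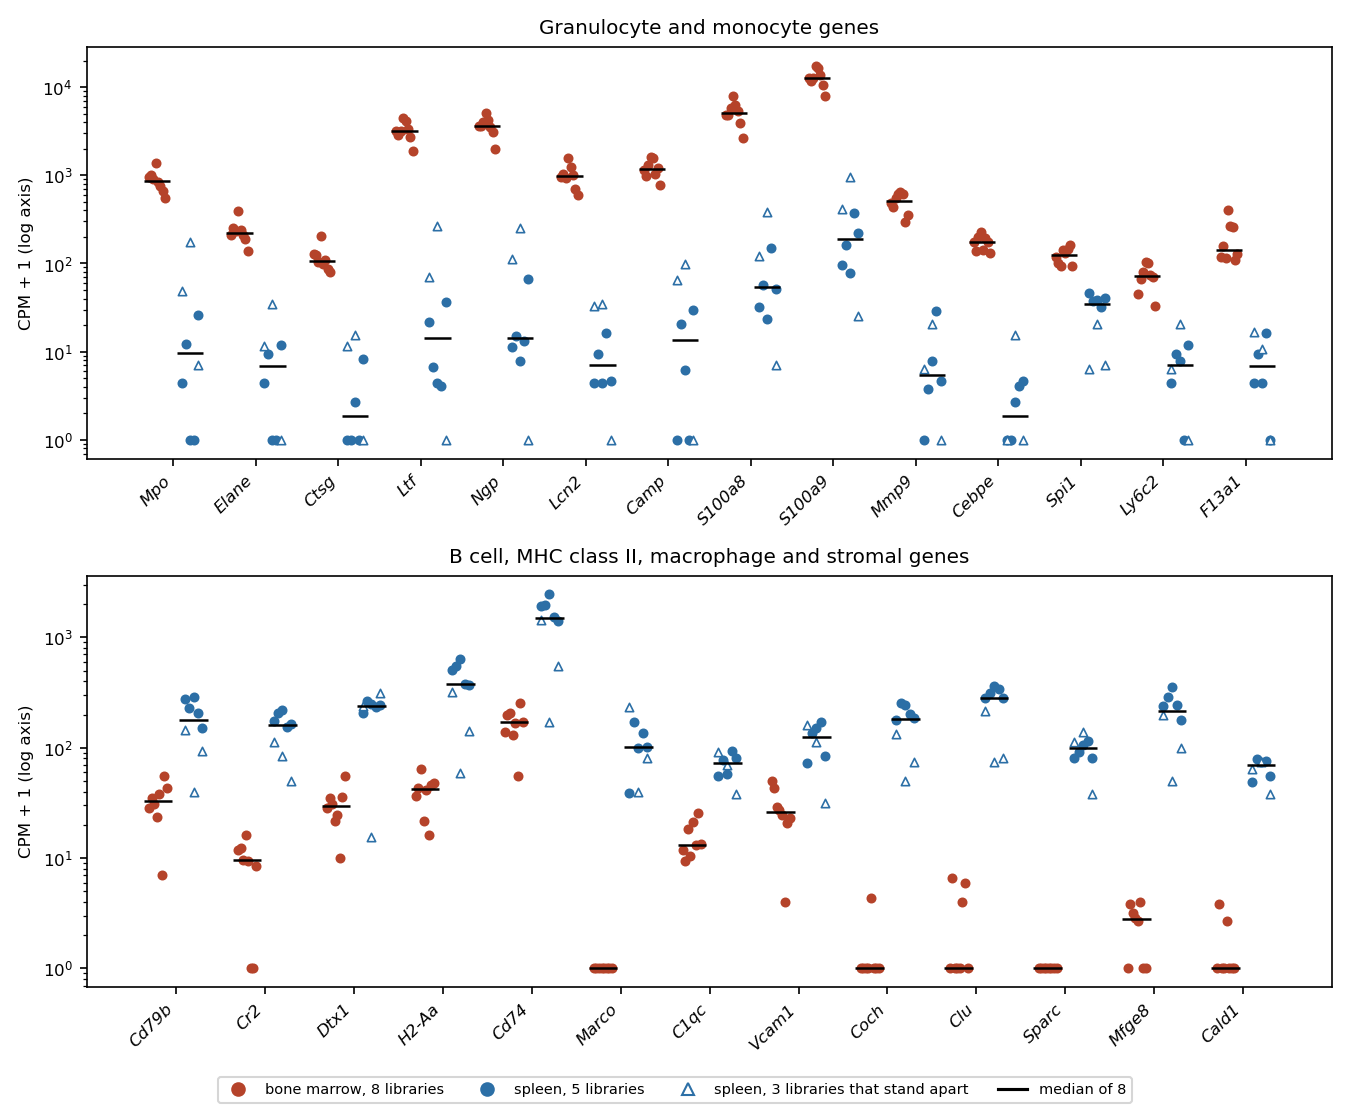
CPM plus 1 on a log axis for single genes, with 1 symbol per library, red for bone marrow and blue for spleen; open triangles are spleen libraries 5, 6 and 8 and bars the median of 8 libraries. In the upper panel the granulocyte genes show no overlap between tissues (S100a9 median 12670 against 190); in the lower panel Marco and Sparc are at 0 in all 8 bone marrow libraries, and the lowest spleen value of Cd74 comes from library 6.

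Monocyte genes also leaned to the marrow, but less uniformly: 4 of 5 tested members were higher there, with a median of 3.02. F13a1, coagulation factor XIII subunit A, was at 109 to 399 CPM (median 141) against 0 to 15.8 (median 5.94; 4.77 ± 0.443). Ly6c2, which marks classical monocytes, was at 32.2 to 102 CPM against 0 to 19.5 (3.35 ± 0.388), and their chemokine receptor Ccr2 at 47.1 to 133 against 0 to 19.7 (3.02 ± 0.329). For these 3 genes the tissues did not overlap. Fn1, fibronectin, had 2.17 ± 0.277, and its antisense row Apol7d 2.70 ± 0.503, or 3.57 without spleen library 6. Csf1r, the receptor for M-CSF, pointed the other way with -0.69 ± 0.157 (adjusted p = 0.0012), under 2-fold, and shares 873 bases with a coding gene of the other strand. In the wider test Nr4a1, a factor of patrolling monocytes, was higher in spleen (-2.06 ± 0.684, adjusted p = 0.0231), and Klf4 was higher in bone marrow (1.38 ± 0.321). Cx3cr1 (0.72, adjusted p = 0.139) and Ace (-0.86, adjusted p = 0.331), both markers of patrolling monocytes, did not pass.

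Among lineage transcription factors, 5 of 8 tested genes were higher in bone marrow and 2 in spleen. Cebpe, the C/EBP factor that switches on secondary granule genes, was at 129 to 225 CPM in bone marrow (median 174) and 0 to 14.6 in spleen (median 0.854). The fold change was 5.89 ± 0.392 (adjusted p = 1.06e-10), or 6.59 without spleen library 6, the largest of the list. Spi1, which encodes PU.1, was at 91.7 to 159 CPM against 5.28 to 44.7 (2.02 ± 0.274), Cebpa, needed for the granulocyte lineage, had 1.92 ± 0.300 and Cebpd 1.19 ± 0.186 (Spidr on the other strand 2.24 ± 0.341). In none of these 4 did the tissues overlap. Nfe2, a factor of megakaryocytes and red cells, had 1.46 ± 0.535 (adjusted p = 0.0353), which lost the call when any of 10 single libraries was left out and rose to 2.17 without spleen library 6. Pax5, the B cell commitment factor, was at 3.04 to 32.8 CPM in bone marrow and 14.6 to 135 in spleen (-2.03 ± 0.345, adjusted p = 6.2e-05). Klf2, a quiescence factor of lymphocytes, had -1.16 ± 0.356, and fell below 2-fold (-0.93) without spleen library 3. The wider test called 7 of 24 tested factors higher in bone marrow (8 without the 3 spleen libraries) and 12 in spleen. Those higher in spleen included Tcf7 (-3.23) and Bcl11b (-2.90) of T cells, Eomes (-2.69) and Tbx21 (-2.04) of cytotoxic cells, Spic (-2.73) of red pulp macrophages and Batf3 (-2.57) of dendritic cells. Gfi1, a repressor needed by neutrophils, was higher in bone marrow (2.24).

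By the rule that names the 15 coding genes of largest fold change in each direction without opposite-strand exons, 12 of the 15 marrow genes were members of the granule, mature neutrophil and factor lists above. The other 3 were Rab44 (6.55 ± 0.444, or 7.52 without spleen library 7), a large Rab GTPase at 89.4 to 214 CPM against 0 to 7.20, Glyctk (6.49 ± 0.445), glycerate kinase, at 51.1 to 156 against 0 to 3.60 while D030055H07Rik opposite it had -0.92, and Slc22a20 (6.38 ± 0.428), an organic anion transporter gene, at 62.2 to 128 against 0 to 4.87. For all 15 marrow genes the tissues did not overlap, against 8.63% of all tested genes. Genes chosen by a large fold change between these same libraries mostly separate, so this only describes them. The lists were chosen with earlier results of these data known, so the share of list members is a description too.

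Basophil, progenitor and early B cell genes were too low for the first test and are given from the wider one. A gene at 0 in 1 tissue can pass its filter only through the other, so these counts are descriptions. Of 10 tested eosinophil, basophil and mast cell genes, 5 were higher in bone marrow and 0 in spleen, or 1, Ccr3 (-1.51, adjusted p = 0.042), without the 3 spleen libraries. Prss34 and Mcpt8, basophil proteases, had 5.17 ± 0.623 (adjusted p = 7.64e-08) and 4.77 ± 0.632 (adjusted p = 4.33e-07). Ms4a2, the beta chain of the high-affinity IgE receptor, had 34 counts in bone marrow and 0 in spleen, at least 8.37-fold higher. Prg2, eosinophil major basic protein, was at 26.5 to 50.9 CPM against 0 to 21.1 (2.80 ± 0.406), without overlap. Of 9 tested stem and progenitor genes, 4 were higher in bone marrow and 0 in spleen: Erg (2.77 ± 0.480), Cd93 (2.03 ± 0.432), Angpt1 (1.91) and Gata2 (1.85). Kit, the stem cell factor receptor (0.74, adjusted p = 0.149), and Cd34 (0.94, adjusted p = 0.166) did not pass, though Gm16897 opposite Cd34 was higher in bone marrow (1.35 ± 0.240), and Flt3 had -0.87 (adjusted p = 0.153). Early B cell genes split. Rag1, a subunit of the V(D)J recombinase, was higher in bone marrow (3.88 ± 0.791, adjusted p = 0.00029), as was Dntt, terminal transferase (1.78 ± 0.514), while Ebf1 (-1.33), Lef1 (-1.70) and Il7r (-1.29), which mature lymphocytes also express, were higher in spleen. In all, 5 of 13 tested early B cell genes were higher in bone marrow and 3 in spleen, and the calls of these 3 lists were the same in number without the 3 spleen libraries, except that 1 basophil and eosinophil gene was then higher in spleen. Erg and Cd93 are members of both the progenitor and the early B cell list. Igll1 had a median of 2.61 CPM in bone marrow and 0 in spleen and was not tested.

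B cell genes were higher in spleen in 10 of 11 tested members, with a median of -1.90, and 18 of 19 in the wider test. Ighm, the IgM heavy chain, was at 307 to 1445 CPM in bone marrow (median 691) and 614 to 5155 in spleen (median 3157), and its groups overlapped (-1.90 ± 0.404, adjusted p = 0.000679). Ighd, the IgD chain of mature B cells, was at 15.2 to 49.7 CPM (median 21.7) against 19.5 to 316 (median 174; -2.78 ± 0.388). Cd79b, of the receptor's signalling pair, was at 6.08 to 54.6 CPM (median 32.1) against 39.0 to 287 (median 177; -2.53 ± 0.349). Ighd and Cd79b overlapped with bone marrow only through spleen library 6, and Ighm through libraries 6 and 8. The list summed to 1072 CPM in library 6, 1485 in library 8 and 3854 in library 5, against 4822 to 7472 in the other 5 spleen libraries and 751 to 1976 in bone marrow. Fcmr, the IgM receptor, had -3.17 ± 0.500, or -3.79 without bone marrow library 8, and Tnfrsf13b (TACI) had -1.09 ± 0.245, just under 2-fold (-0.996) without spleen library 3. Ms4a1 (CD20; -3.002 ± 0.375), Cd22 (-3.34 ± 0.370) and Fcer2a (CD23; -2.54 ± 0.426) were called in the wider test, and Gm29439, which shares 479 bases with Cd22 on the other strand, was at 48.6 to 404 CPM against 409 to 4291 (-3.19 ± 0.422). Without the 3 spleen libraries 10 of 11 members were again higher in spleen, with a median of -2.39.

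Differences among marginal zone B cell genes varied in size, and Cr2 is a member of the mature B cell list too. Cr2, complement receptor 2, was at 0 to 15.1 CPM in bone marrow (median 8.52) and 49.1 to 220 in spleen (median 158), without overlap (-4.08 ± 0.373, adjusted p = 1.13e-08). Dtx1, a regulator of Notch signalling, was at 9.12 to 54.5 CPM (median 28.8) against 14.6 to 313 (median 239; -2.90 ± 0.369); only spleen library 6 lay among the marrow values. Notch2, the receptor that marginal zone B cells depend on, is widely expressed and had 0.15 ± 0.242 (adjusted p = 0.658). In the wider test 7 of 8 members were higher in spleen, among them S1pr3 (-3.55 ± 0.535), Asb2 (-4.57 ± 0.603) and Fcrl5 (-4.31 ± 0.711).

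The MHC class II genes, which load peptides for CD4 T cells, were higher in spleen in 4 of 5 tested members, with a median of -3.13. Cd74, the invariant chain, was at 54.7 to 253 CPM in bone marrow (median 170) and 171 to 2459 in spleen (median 1485; -3.13 ± 0.388, adjusted p = 9.63e-07). H2-Aa was at 15.2 to 62.5 CPM (median 41.4) against 58.5 to 639 (median 374; -3.27 ± 0.379), H2-Ab1 had -3.02 ± 0.353 and H2-Eb1 -3.59 ± 0.396. The tissues overlapped only through spleen library 6, in which the list summed to 595 CPM, against 1461 in library 8, 2740 in library 5, 3012 to 5014 in the other 5 and 349 to 646 in bone marrow. H2-Oa (-4.33 ± 0.563), H2-Ob (-3.16 ± 0.401) and H2-DMb2 (-2.84 ± 0.460), editors of the peptide cargo, and Ciita (-2.71 ± 0.397), the master activator of the class, were among 8 of 10 members higher in spleen in the wider test, and 9 of 10 were without the 3 spleen libraries. Rows opposite them moved alike: BC051537, opposite H2-Oa, had -3.51 ± 0.382 and Dexi, opposite Ciita, -3.19 ± 0.342. H2-DMa had 0.42 ± 0.187 (adjusted p = 0.0821) on its own row and shares 360 bases with Brd2 on the other strand, which had -0.18 (adjusted p = 0.498). Start regions of 2 of the 4 called genes were matched in RefSeq, and both hold CTGATTGG, the Y box of class II promoters, found before 3.83% of all windows.
H2-Aa, chr17:34287824-34288073, minus strand: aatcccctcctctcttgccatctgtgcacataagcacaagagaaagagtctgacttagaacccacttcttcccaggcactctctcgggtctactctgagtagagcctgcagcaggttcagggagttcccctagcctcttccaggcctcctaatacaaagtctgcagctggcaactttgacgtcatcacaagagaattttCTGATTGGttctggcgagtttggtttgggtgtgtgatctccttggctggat
H2-Eb1, chr17:34305617-34305866, plus strand: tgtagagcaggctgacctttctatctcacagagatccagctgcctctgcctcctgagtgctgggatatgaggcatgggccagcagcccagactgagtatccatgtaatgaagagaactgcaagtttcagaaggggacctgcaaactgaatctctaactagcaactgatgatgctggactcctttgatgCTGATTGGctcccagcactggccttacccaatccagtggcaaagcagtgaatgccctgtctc

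The Y box begins 51 bases before the start of H2-Aa and 62 before that of H2-Eb1. The other called class II genes had no entry in the promoter table.

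Plasma cell genes were higher in spleen in 3 of 6 tested members. Jchain, which joins IgA and IgM multimers, was at 22.3 to 119 CPM in bone marrow (median 55.2) and 39.0 to 483 in spleen (median 252; -2.08 ± 0.430, adjusted p = 0.000512). Of the switched heavy chains, Ighg2c (-3.15 ± 0.625, adjusted p = 0.000343) and Ighg2b (-1.65 ± 0.542, adjusted p = 0.0193) were higher in spleen, the latter not past the threshold without spleen library 1 (adjusted p = 0.0585). Ighg3 had -1.51 (adjusted p = 0.0625), or -2.45 and a call without bone marrow library 2, which held 139 CPM against at most 60.8 in the other 7. Igha (-0.68, adjusted p = 0.265) and Xbp1, the secretory stress factor (0.13, adjusted p = 0.777), were not called. In the wider test 7 of 13 members were higher in spleen and 0 in bone marrow. These counts were 4 of 6 and 8 of 13 without the 3 spleen libraries.

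Most T cell genes had too few counts on their own rows for the first test. Of 3 tested members none was called, and 2 of these, Cd247 (-0.73 ± 0.207, adjusted p = 0.00744) and Foxp3 (-0.07 ± 0.160, adjusted p = 0.778), share 3007 and 590 bases with coding genes of the other strand. The third, Cd27, had -0.85 ± 0.383 (adjusted p = 0.088). In the wider test 17 of 20 members were higher in spleen, with a median of -2.71. Cd3e, a signalling chain of the T cell receptor, was at 0 to 2.73 CPM in bone marrow and 4.87 to 34.2 in spleen, without overlap (-3.62 ± 0.571, adjusted p = 8.23e-06). Cd4 was at 0 to 4.96 CPM against 0 to 56.3 (-3.84 ± 0.555) and Cd8a at 0 to 5.66 against 6.14 to 43.2 (-3.34 ± 0.513). The kinase Lck had -2.56 ± 0.394 and the homing receptor Ccr7 -3.21 ± 0.547. Gm48719, opposite Cd3e, held more counts and gave a tested row: 14.9 to 69.4 CPM in bone marrow (median 29.6) and 34.1 to 399 in spleen (median 277; -2.72 ± 0.365, adjusted p = 2.86e-06). In spleen library 8, Cd4 was at 6.14 CPM and Tcf7 at 36.8, against 24.7 to 56.3 and 52.5 to 89.99 in the 5 libraries that did not stand apart. Tcf7 was lower still in spleen libraries 5 (15.8 CPM) and 6 (9.75 CPM). The T cell list summed to 2578 CPM in library 8, 1647 in library 5 and 1501 in library 6. In the other 5 spleen libraries it summed to 1627 to 2088. Cd247 alone was at 1553 CPM in library 8. The wider counts without the 3 spleen libraries were the same, 17 of 20. Of 8 NK and cytotoxic genes in the wider test, 6 were higher in spleen (7 without the 3 libraries), such as Klrk1 (NKG2D; -2.04 ± 0.403 in the first test) and Ccl5 (-4.59 ± 0.660), while Nkg7, a granule membrane protein, was higher in bone marrow (2.21 ± 0.510).

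Of 4 marginal zone macrophage genes in the wider test 3 were higher in spleen and 1 in bone marrow, with the same counts without the 3 spleen libraries. Marco, a scavenger receptor of these macrophages (chr1:120474538-120505024), had no count in any bone marrow library and 37.8 to 232 CPM in spleen (median 99.9), at least 121-fold higher in spleen. Siglec1, the sialic acid receptor CD169 (-2.20 ± 0.572), and Nr1h3, the sterol receptor LXR alpha (-2.64 ± 0.562), were higher in spleen, and Msr1, a scavenger receptor, in bone marrow (2.17 ± 0.631). Timd4, a receptor for dying cells of the red pulp macrophage list, was also at 0 in bone marrow and at least 20.8-fold higher. Of 6 tested red pulp macrophage genes 4 were higher in spleen. C1qc, a chain of complement C1q, was at 8.49 to 24.8 CPM in bone marrow (median 12.3) and 36.8 to 92.6 in spleen (median 72.1; -2.27 ± 0.247). Hmox1, which opens haem and frees its iron, was at 4.97 to 47.1 CPM (median 29.2) against 79.8 to 232 (median 118; -1.999 ± 0.267). Vcam1, an adhesion molecule (-2.08 ± 0.336), and Axl, a receptor for dying cells (-1.65 ± 0.271), were called as well. For C1qc, Hmox1 and Axl the tissues did not overlap. Slc40a1, the iron exporter ferroportin, had -0.76 ± 0.215 (adjusted p = 0.00708), under 2-fold, and Cd163, the haptoglobin-haemoglobin receptor, 0.61 ± 0.296 (adjusted p = 0.113). Spic (-2.73 ± 0.491), Cd5l (-2.24 ± 0.313) and Mertk (-2.44 ± 0.498) were called in the wider test, in which 11 of 16 members were higher in spleen. Itgad, an integrin of red pulp macrophages, had -0.37 there (adjusted p = 0.624), whereas 4931431B13Rik, opposite it, was at 30.4 to 96.7 CPM against 169 to 792 (-2.60 ± 0.295). Of 11 conventional dendritic cell genes in the wider test 6 were higher in spleen, among them Clec9a (-3.09 ± 0.466) and Xcr1 (-1.65 ± 0.391) of cross-presenting cells, and Clec10a, a lectin, was higher in bone marrow (2.09 ± 0.732, adjusted p = 0.032). Without the 3 spleen libraries 5 were higher in spleen and Clec10a was not called (1.82, adjusted p = 0.0895). Of 10 plasmacytoid dendritic cell genes 4 were higher in spleen, including Spib (-1.83 ± 0.345), which B cells also express, and Ly6d (-2.83 ± 0.445). Runx2 was higher in bone marrow, and Siglech, a receptor of these cells, had -0.26 (adjusted p = 0.678). Leaving out the 3 libraries, 6 were higher in spleen.

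Several genes of stroma and matrix were far higher in spleen. Of the spleen stromal and mesothelial list, 6 members were in the wider test, 5 higher in spleen and 1 in bone marrow, with the same counts without the 3 spleen libraries. Coch, cochlin, was at 0 in all bone marrow libraries except library 5 (3.37 CPM) and at 48.7 to 256 in spleen (median 181; -7.45 ± 0.528, adjusted p = 2.39e-10, or -8.82 without bone marrow library 5). Clu, clusterin, a secreted chaperone, was at 0 to 5.66 CPM against 73.1 to 365 (median 283; -7.27 ± 0.536, or -7.87 without bone marrow library 2). Both groups were widely separate. Sparc, a matrix protein, had no marrow count and 36.8 to 137 CPM in spleen (median 97.9), at least 104-fold higher. Slco2a1, a prostaglandin transporter, was at least 41.5-fold higher, with 34.0 to 45 CPM in spleen, a narrow range. Mfge8, which bridges dying cells to phagocytes (-6.80 ± 0.472), Cald1, caldesmon of contractile cells (-6.05 ± 0.399), and Cavin1, of caveolae (-4.48 ± 0.417), followed, all without overlap. Pcolce2, which helps process procollagen, had -3.89 ± 0.407, or -4.48 without bone marrow library 2. Cxcl13, the chemokine that draws B cells into follicles, was at 0 in bone marrow and 19.5 to 87.2 CPM in spleen, at least 61-fold higher. The spleen patterning factors Tcf21 (at least 19.9-fold) and Nkx2-3 (-3.77 ± 0.663 in the wider test) were higher in spleen.

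Smooth muscle genes followed. The mouse spleen has a muscular capsule and trabeculae, whose part in these values was not tested. In the wider test 6 of 8 members were higher in spleen, among them Myh11, smooth muscle myosin (-6.22 ± 0.515), Acta2 (-4.48 ± 0.488) and Des, desmin (at least 47.9-fold). Tagln, transgelin, had on its own row 136 to 183 CPM in bone marrow and 95.7 to 187 in spleen (0.13 ± 0.164, adjusted p = 0.579). Gm48529, which shares 1241 bases with Tagln on the other strand, was at 2.48 to 25.3 CPM in bone marrow (median 15.1) and 4109 to 8962 in spleen (median 6141). Its fold change of -8.63 ± 0.302 (adjusted p = 5.69e-15) stands beside no difference that could be detected on the coding row. Gm21691, opposite Mylk, moved like Mylk (-2.45 ± 0.278 and, in the wider test, -3.44 ± 0.498). Endothelial genes were mixed, with 4 of 8 higher in spleen and 1 in bone marrow in the wider test. Egfl7, a vessel matrix factor that shares 64 bases with Agpat2 on the other strand (2.83 ± 0.358), was higher in bone marrow (1.06 ± 0.386, adjusted p = 0.0398), a call lost without the 3 spleen libraries (0.94, adjusted p = 0.0947). Cd36 (-4.79 ± 0.574), Kdr, the VEGF receptor (-3.33 ± 0.610), and Stab2 of sinusoids (-2.98 ± 0.612) were higher in spleen in the wider test, Cldn5 was at least 16.3-fold higher, and Pecam1 (-0.71 ± 0.237, adjusted p = 0.0216) and Stab1 (0.45, adjusted p = 0.159) were not called.

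Several genes that define the stroma of bone and marrow were absent or higher in spleen, while the osteoblast list split. Bglap and Bglap2, osteocalcin genes of osteoblasts, had no count in either tissue, and Col1a2, a type I collagen chain, was at 0 in bone marrow and at least 59.6-fold higher in spleen. Cxcl12, the retention chemokine of the marrow niche, was at 0 to 6.47 CPM in bone marrow (median 3.10) and 19.5 to 136 in spleen (median 93.4), without overlap (-4.68 ± 0.438 in the wider test, adjusted p = 4.65e-10). Kitl, stem cell factor (-4.48 ± 0.677), and Lepr, which marks marrow reticular cells (-4.19 ± 0.764), were also higher in spleen, as were 5 of 6 tested niche genes. Of 5 osteoblast and osteocyte genes in the wider test, Col1a2 and Col1a1 (-5.42 ± 0.558) were higher in spleen and Runx2 and Spp1 in bone marrow. Spp1, osteopontin, had 2.14 ± 0.780 (adjusted p = 0.0407), or 1.88 without a call without the 3 spleen libraries (adjusted p = 0.0833). Runx2 was at 39.6 to 74.5 CPM in bone marrow and 3.09 to 14.1 in spleen (2.67 ± 0.277, adjusted p = 7.42e-08); plasmacytoid dendritic cells express this factor too. Acp5, the acid phosphatase of osteoclasts and of spleen macrophages, was higher in spleen (-1.85 ± 0.270), as was 6530413G14Rik opposite it (-1.84 ± 0.207). Of the 2 tested members of the osteoclast list the other, Mmp9, was higher in bone marrow. With Mmp9, which neutrophils also express, the osteoclast list summed to 333 to 663 CPM in bone marrow and 36.8 to 127 in spleen. Cartilage and exocrine pancreas genes summed to at most 30.7 and 26.4 CPM in any library. Skeletal muscle genes summed to 27.4 to 52.1 CPM in bone marrow and 39.0 to 147 in spleen, where Mylpf was called (-1.38 ± 0.243) and Acta1 and Myh4 were at 0 throughout.

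**Figure D3:**
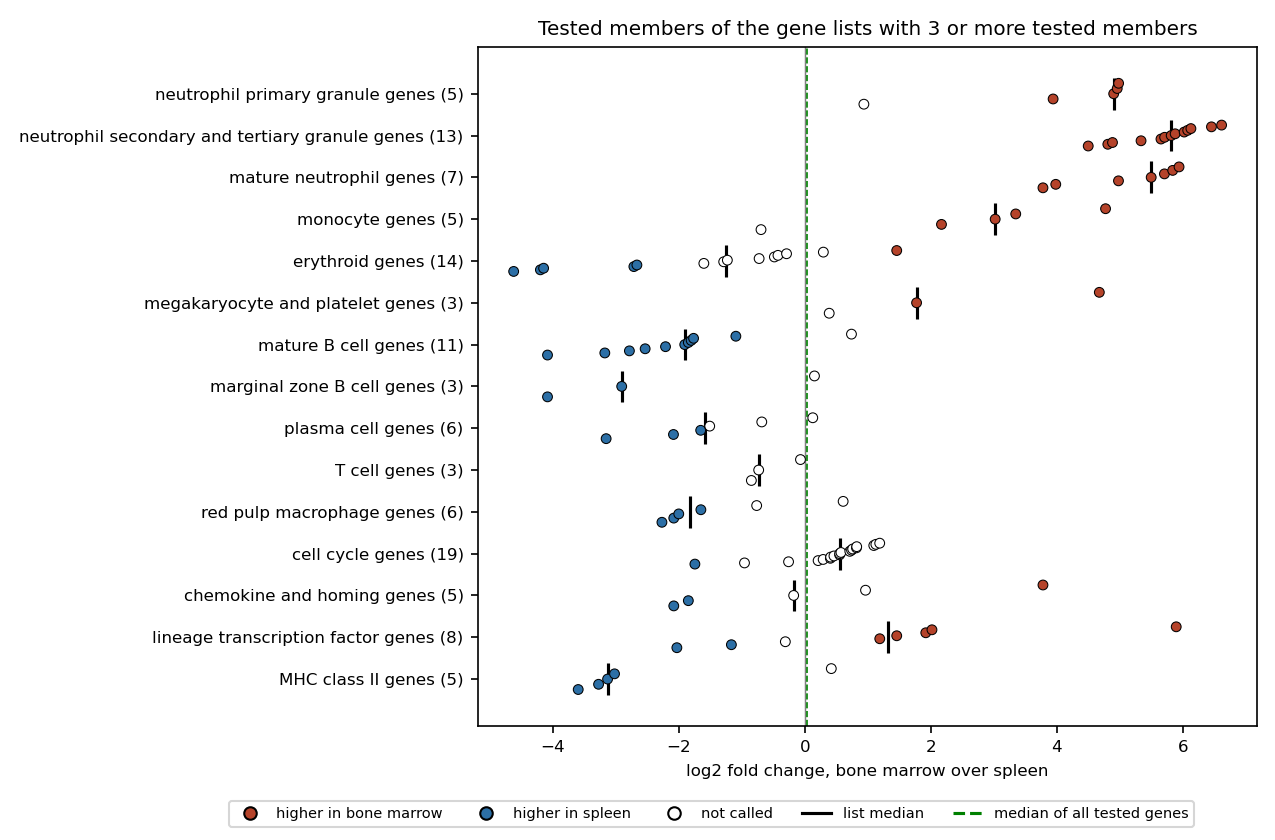
Each point is a tested member of a gene list, placed by its log2 fold change, bone marrow over spleen; red and blue points are called, open points are not, black bars are list medians, and the number of tested members stands in brackets. All 13 secondary and tertiary granule genes lie between 4.50 and 6.61, while 10 of 11 mature B cell genes lie below -1.

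Megakaryocyte and platelet genes did not move as 1 group. Selp, P-selectin, which platelets and endothelium store, was at 51.9 to 76.0 CPM in bone marrow (median 61.5) and 0 to 4.87 in spleen (4.67 ± 0.322, adjusted p = 1.65e-10), and Thbs1, thrombospondin, had 1.77 ± 0.446. Gm16548 opposite Selp had 1.02 ± 0.309, and Gm29233 opposite Thbs1 was higher in bone marrow too. In the wider test 5 of 14 members were higher in spleen (4 without the 3 spleen libraries), among them the platelet chemokines Pf4 (-2.38 ± 0.543) and Ppbp (-2.73 ± 0.478). Itga2b, the platelet integrin, had -0.56 (adjusted p = 0.343).

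The direction of many erythroid genes depended on the 3 spleen libraries. These were set apart by their values over the tested genes, so results without them only describe this dependence. Of 14 tested members, 5 were higher in spleen and 1 in bone marrow (median -1.26); without the 3 libraries 4 were higher in spleen and 5 in bone marrow, and the median was 0.70. The list summed to 16820 CPM in spleen library 6, 11010 in library 5 and 258 in library 8, against 862 to 2201 in the other 5 spleen libraries and 666 to 1460 in bone marrow. The globins of red cells were higher in spleen with and without these libraries. Hbb-bs was at 3.04 to 67.9 CPM in bone marrow (median 46.3) and 117 to 2824 in spleen (median 677), without overlap (-4.62 ± 0.582, or -3.81 without the 3 libraries, adjusted p = 2.81e-12). Hba-a1 (-4.14 ± 0.6, or -3.29) and Hbb-bt (-4.19 ± 0.657, or -3.05) overlapped with bone marrow only through spleen library 8. Near-identical globin copies such as Hba-a1 and Hba-a2 may share reads. Alas2, the first enzyme of haem synthesis in red cells, had -2.71 ± 0.550, or -1.78, and Apex2, which shares 311 bases with Alas2 on the other strand, was at 159 to 816 CPM in bone marrow and 1946 to 16250 in spleen (-3.95 ± 0.513). Slc4a1, the band 3 anion exchanger, ran from 6.14 to 2393 CPM in spleen against 24.3 to 141 in bone marrow. Its call (-2.66 ± 0.888, adjusted p = 0.0211) was lost without spleen library 6 (-1.21, adjusted p = 0.142), and without all 3 the value was 0.40 (adjusted p = 0.454). Sptb, spectrin beta, turned from -0.43 ± 0.642 to 1.86 (adjusted p = 1.15e-06) without the 3 libraries, and Tfrc, the transferrin receptor, from -0.72 ± 0.674 to 1.22 (adjusted p = 0.00611). Ermap (1.44) and Aqp1 (1.08) became higher in bone marrow in the same way, and Nfe2 went from 1.46 to 3.06.

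**Figure D4:**
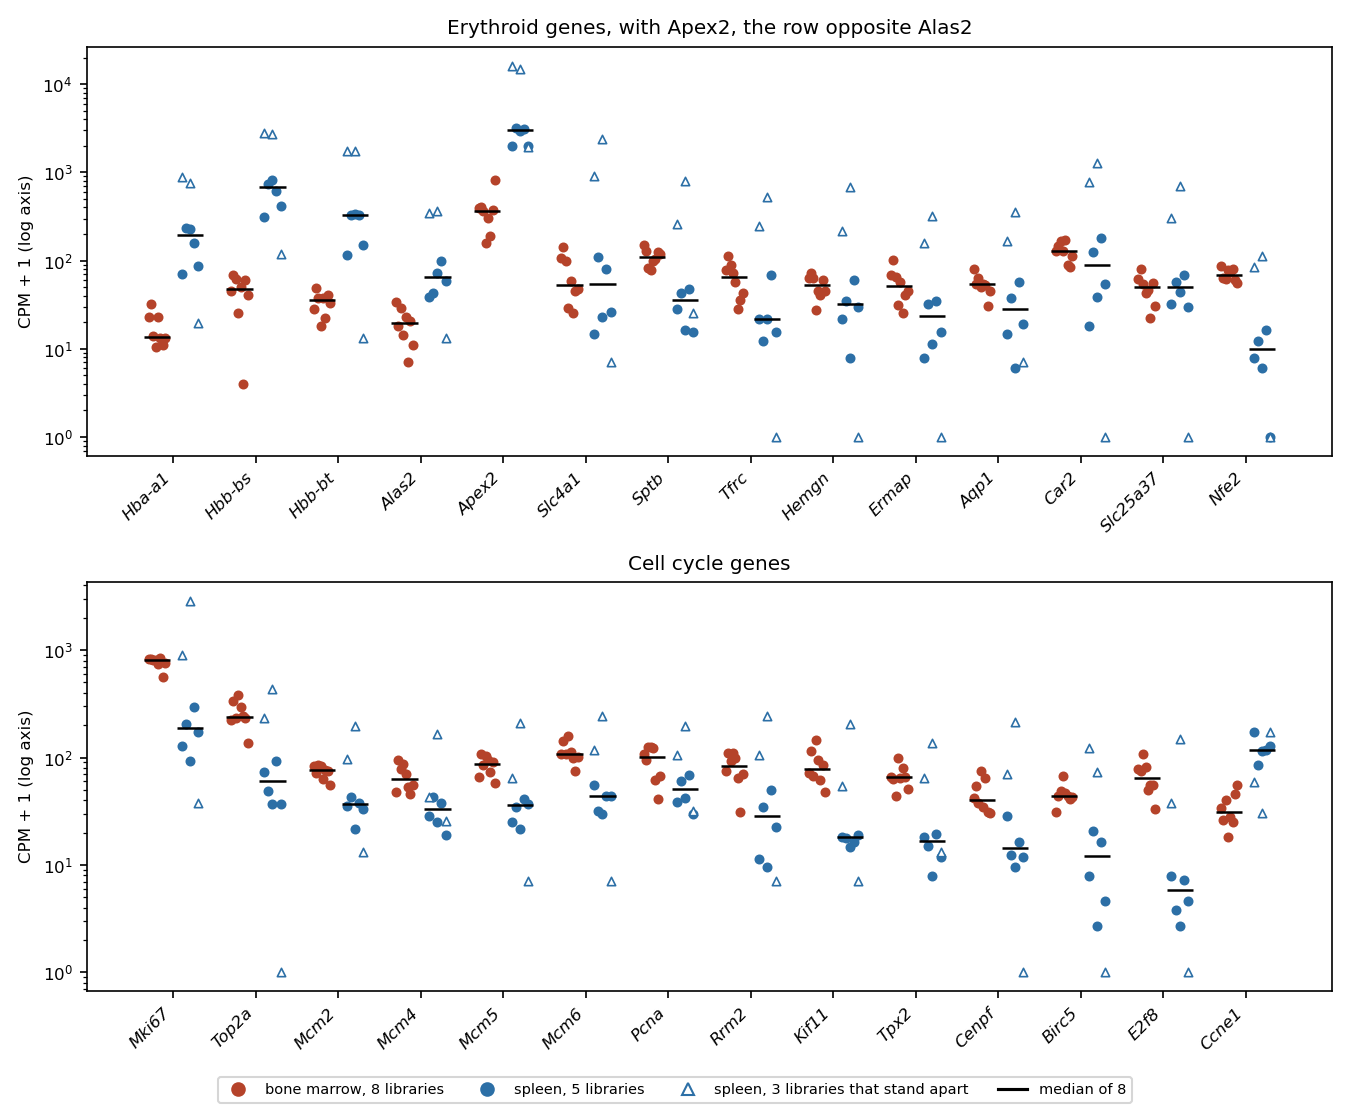
CPM plus 1 on a log axis for erythroid genes with Apex2 (upper panel) and cell cycle genes (lower panel), with 1 symbol per library; open triangles are spleen libraries 5, 6 and 8 and bars the median of 8. For the globins all filled spleen symbols lie above the bone marrow, whereas for Slc4a1, Sptb and Mki67 the triangles of libraries 5 and 6 lie above the bone marrow and the filled symbols mostly at or below it (Mki67 2866 CPM in spleen library 6).

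Cell cycle genes showed the same dependence. Of 19 tested members 0 were higher in bone marrow and 1 in spleen, although the median was 0.55. Without the 3 spleen libraries 14 were higher in bone marrow, as were 14.3% of all tested genes, and the median was 1.46. Because these libraries were set apart by their values over the tested genes, the calls and p-values without them are descriptions only. Mki67, the proliferation antigen, was at 561 to 848 CPM in bone marrow (median 801), a narrow range, and 36.8 to 2866 in spleen (median 188). It reached 2866 CPM in spleen library 6 and 903 CPM or less in the other 7; the fold change was 0.41 ± 0.582 (adjusted p = 0.62), 1.53 without spleen library 6 and 2.07 (adjusted p = 1e-09) without all 3. Top2a, which untangles DNA before division, had 1.19 ± 0.492 (adjusted p = 0.062) and 2.17 without the 3 libraries, and Kif11, a spindle motor, 1.13 ± 0.496 (adjusted p = 0.0793) and 2.35. The replication helicase subunits Mcm2 (0.41 to 1.11), Mcm4 (0.55 to 1.11), Mcm5 (0.72 to 1.42) and Mcm6 (0.74 to 1.48) rose in the same step, and all were then called. E2f8, an E2F factor named by its spread and no member of the list, was called with all libraries (1.66 ± 0.616, adjusted p = 0.0377), lost the call when any of 10 single libraries was left out, and had 3.20 without spleen library 6. Ccne1, the cyclin of the entry into S phase, was higher in spleen (-1.74 ± 0.304, adjusted p = 8.35e-05, and -1.97 without the 3 libraries). The list summed to 7423 CPM in spleen library 6, 3627 in library 5 and 890 in library 8, against 920 to 1544 in the other 5 spleen libraries and 2373 to 3563 in bone marrow. The erythroid, cell cycle and neutrophil sums were all high in spleen library 6, and their part in each other's differences was not tested.

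Chemokine and homing genes joined several of these groups. Of 5 tested members, Cxcr2 was higher in bone marrow and Cxcr5, the follicle homing receptor (-1.85 ± 0.399), and Vcam1 in spleen. Cxcr4, the receptor for Cxcl12, was at 29.7 to 79.2 CPM in bone marrow (median 73.8) and 3.44 to 78.5 in spleen (median 21.4). Its fold change of 0.96 ± 0.349 (adjusted p = 0.0328) fell just short of 2-fold and was 1.46 with a call without spleen library 3. S1pr1, which guides lymphocytes out of organs, was higher in spleen in the wider test (-2.66 ± 0.384). Ccl19 and Ccl21a, the T zone chemokines, each have a pair of rows in the table: those of Ccl19 had no count and those of Ccl21a at most 3.42 CPM in any library. Of the immediate early and heat shock genes, which respond to tissue handling, neither tested member was called: Hspa8 had -0.10 ± 0.271 (adjusted p = 0.804) and Hsph1 -1.07 ± 0.482 (adjusted p = 0.087). Hsph1 was -0.41 without spleen library 3, which held 307 CPM, but was called without bone marrow library 3 (-1.33), without spleen library 6 (-1.16) and without the 3 spleen libraries (-1.38, adjusted p = 0.00926). Fos was higher in bone marrow (3.18 ± 0.711) and Jun in spleen (-1.39 ± 0.472) in the wider test.

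The antisense rows were set beside the coding rows opposite them. Whether they hold reads of those coding genes was not tested, so the 2 rows of a pair may not be independent. Of 176 antisense rows tested together with the coding gene opposite them, 123 (69.9%) had a fold change of the same sign as the coding gene. Both rows were called in 29 pairs, and in 27 of these the direction was the same. In Alox5ap, which activates leukotriene synthesis, the coding row had 3.43 and the antisense row Gm19719 3.36, with 305 and 12902 counts. In Myb, a factor of blood progenitors, the values were 3.76 and 2.60 for Gm26577. Swap70, a B cell signalling protein, had -1.76 and Gm45515 -2.12. The pairs of opposite direction were Ms4a6c (-2.08) with BE692007 (1.88) and Syp (3.42) with Gm14703 (-1.33). These 5 pairs were chosen after their values were seen.

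**Figure D5:**
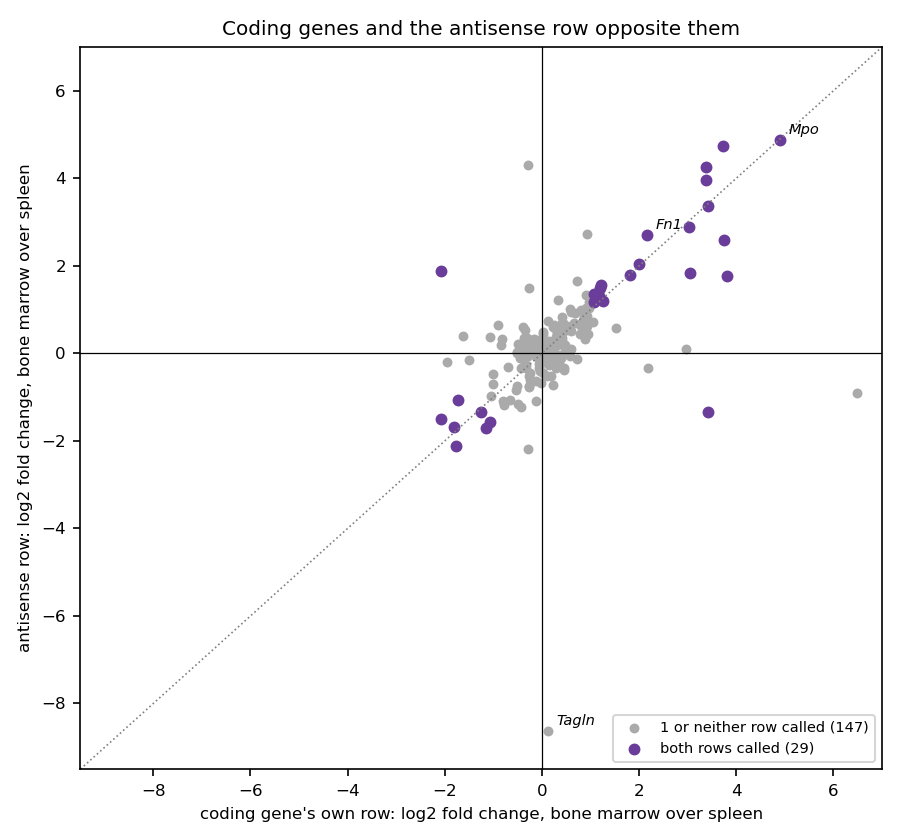
Log2 fold changes, bone marrow over spleen, of 176 pairs of a coding gene (x axis) and the antisense row opposite it (y axis); the dotted line marks equal values. The 29 pairs in which both rows were called are purple, and 27 of them have the same sign on both axes; Tagln lies at 0.13 on its own row and -8.63 on the antisense row.

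Spread within a tissue was uneven. Among called coding genes, those that varied most over the 8 spleen libraries were Slc4a1 (SD 2.94 of log2 CPM plus 1), Camp (2.80), Mpo (2.62), Ltf (2.60) and Nfe2 (2.54), all with SDs of 0.23 to 0.90 in bone marrow. Ltb, lymphotoxin beta, which organises white pulp, was at 0 to 143 CPM in spleen (SD 2.34) and higher there (-1.91 ± 0.413). Rasal3 (-1.05 ± 0.348, adjusted p = 0.0206) fell below 2-fold when any of 5 single libraries was left out (spleen 1, 3 and 7, bone marrow 5 and 8). In bone marrow the most variable were genes low there and higher in spleen: Ikzf3, Aiolos of B cells (SD 2.06; -2.09 ± 0.448), Gimap4 of lymphocytes (SD 2.05; -2.73 ± 0.442), Nxpe4 (SD 1.75; -3.88 ± 0.472) and Mdn1, a ribosome assembly factor (SD 1.68; -1.29 ± 0.352). Nxpe4 was at 0 to 34.0 CPM in bone marrow and 73.1 to 755 in spleen, without overlap. Several of these SDs rest on few counts and on libraries at 0. In spleen, Camp and Mpo had 50 and 58 counts over 8 libraries. In bone marrow, Ikzf3, Gimap4 and Mdn1 had 43, 49 and 66. A single count exceeds 1 CPM here, so zeros widen the SD and these rankings may reflect low counts.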

How the data were processed

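Gene counts were used as deposited; per the submitters' processing notes the pipeline named HISAT2 and edgeR with builds GRCm38 and mm10, and per the labels the libraries were polyA-selected, strand-marking and paired-end with 50 bp reads. The 16 columns were taken by their names and 32 columns of other samples were left out; the row without a gene identifier held 0 counts. Genes were kept with filterByExpr (minimum count 10, minimum total 15), scaled by TMM and tested with edgeR 4.0.16 (R 4.3.3; limma 3.58.1) by its quasi-likelihood test with tissue as the only term, and p-values were adjusted over all 4239 genes by the Benjamini-Hochberg method. CPM values are TMM-scaled. On simulated counts, 96% of genes changed by 1.5 on the log2 scale and 0.0495% of unchanged genes were called in the first test, and 49% and 0.0512% in the wider test of 13873 genes. The simulated libraries were drawn independently, with the same spread per gene in both tissues and no libraries that stood apart. These rates may therefore not hold for the real libraries.

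The members and the 33 gene lists were chosen with earlier results of these data known. Beside list members, the text names the 15 coding genes of largest fold change in each direction among called genes without opposite-strand coding exons whose log2 CPM averaged 3 or more, and the 10 called coding genes of largest spread within each tissue. Alternatives were other scalings, filters and tools (DESeq2 1.42.0, limma-voom), single libraries left out and, chosen after seeing the data, 3 spleen libraries left out. No 2 libraries of a tissue agreed within counting noise (lowest chi-square per degree of freedom 1.54). Some items are not reported here.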

Additional observations from a re-analysis of the deposited data

Results flagged for a closer look

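Values are in CPM. In a group of 8 libraries a single library was judged by its gap to the nearest other library. It was taken to stand out when this gap, as a share of the group's range, was above Dixon's 95% critical value. For independent, normally distributed values chance marks about 1 set in 20. The CPM values are skewed and include zeros, list sums share genes with the single rows, and some genes were named for their spread. That rate may therefore not apply here. Of 344 sets of 8 values, 57 (16.6%) stood out, 34 of them through spleen library 6, 5 through spleen library 8 and 4 each through spleen library 4 and bone marrow library 4. The causes were not tested.

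The summed levels of lists that stood out in spleen library 6 against the range of the other 7 spleen libraries were cell cycle genes (7423 against 890 to 3627), marginal zone B cell genes (141 against 436 to 650), mature neutrophil genes (1457 against 30.7 to 664), megakaryocyte and platelet genes (375 against 170 to 234) and neutrophil secondary and tertiary granule genes (887 against 18.4 to 359). Lower there than elsewhere were skeletal muscle genes (38.99 against 105.6 to 147). Granulocyte, monocyte and platelet rows high in that library were Anxa1 (73.1 against 0 to 25.2), Apol7d (185 against 0 to 49.1), Cebpe (14.6 against 0 to 3.6), Chil3 (77.98 against 0 to 26.4) and Elane (34.1 against 0 to 10.8). Further such values there were Fn1 (107 against 18.4 to 58.7), Gm11505 (4260 against 32.4 to 590), Ltf (268 against 0 to 68.6), Mpo (176 against 0 to 47.5) and Ngp (249 against 0 to 111). Others were Prtn3 (63.4 against 0 to 21.1), S100a8 (380 against 6.14 to 148), S100a9 (950 against 24.6 to 412) and Thbs1 (77.98 against 0 to 28.8).

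Erythroid rows high in spleen library 6 were Aqp1 (351 against 5.12 to 164), Gm15816 (2427 against 12.3 to 802), Hemgn (682 against 0 to 216), Slc25a37 (692 against 0 to 301) and Slc4a1 (2393 against 6.14 to 903). Further such values there were Sptb (804 against 14.4 to 259) and Tfrc (526 against 0 to 248). E2f8 was also high in that library (146 against 0 to 36.96), as were the cell cycle genes Kif11 (205 against 6.14 to 52.8), Mcm4 (166 against 17.99 to 42.2), Mcm5 (210 against 6.14 to 63.4) and Mki67 (2866 against 36.8 to 903). The last of these was Tpx2 (136 against 6.83 to 63.4). The marginal zone B cell gene low in it was Dtx1 (14.6 against 206 to 313).

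In spleen library 8 the values apart were lineage transcription factor genes (473 against 784 to 987), 4931431B13Rik (792 against 169 to 380), 6530413G14Rik (1344 against 731 to 982), Cd247 (1553 against 433 to 911) and Gp1ba (104 against 27.3 to 61.8). In spleen library 4 they were Csf3r (30.9 against 0 to 11.2), Cxcr2 (37.05 against 0 to 15.8), Mdn1 (92.6 against 31.7 to 53.4) and Mmp8 (27.8 against 0 to 6.14). In spleen library 5 they were Foxp3 (882 against 488 to 669) and Hmox1 (232 against 79.8 to 148). In spleen library 3 it was Hsph1 (307 against 18.4 to 120). In spleen library 7 it was Rab44 (7.2 against 0 to 3.09). In bone marrow library 4 the values apart were Ctsg (204 against 79.3 to 128), Elane (393 against 139 to 255), Prtn3 (350 against 74.4 to 188) and Xbp1 (81.3 against 24.8 to 45.6). In bone marrow library 7 they were Hmox1 (4.96 against 27.4 to 47.1) and Mki67 (561 against 734 to 848). In bone marrow library 8 they were Apex2 (816 against 159 to 404) and Fcmr (34.7 against 0 to 14.9). In bone marrow library 2 it was Ighg3 (139 against 0 to 60.8). In bone marrow library 5 it was Coch (3.37 against 0 in the other 7).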

How the results depend on the processing

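The low lists rest on few counts: median totals were 424438 and 321211 counts. The genotypes could not be separated, and 13 of 139 named genes changed sign under at least 1 of up to 26 alternatives, of which only Slc4a1 was called with all libraries; 23 lost or gained a call. No paired analysis was possible because the numbers of the count columns match no sample's title. Leaving out 1 library gave 891 to 1016 called genes, 501 to 564 higher in bone marrow and 385 to 452 in spleen. Calls in all, higher in bone marrow and higher in spleen were 4044, 1552 and 2492 with no filter (22736 genes), 2971, 1382 and 1589 in the wider test, 507, 348 and 159 on genes without opposite-strand exons, 1496, 824 and 672 without the 3 spleen libraries with the filter run again, 1598, 850 and 748 by the adjusted p alone, and 355, 214 and 141 at a log2 change of 2. The share of calls higher in bone marrow was 57.2%, 53.2% to 62.1% over the other scalings, 64.3% with limma-voom, 46.5% in the wider test and 38.4% with no filter. Of the log2 fold changes that turned sign, Foxp3 was 0.012 by total counts, with DESeq2 Sptb was 0.76 and Ermap 0.52, and with limma-voom Sptb was 1.19, Tfrc 0.92, Car2 0.59, Hemgn 0.58, Ermap 1.10, Aqp1 0.95, Gm15816 0.50 and Hspa8 0.002. Without the 3 spleen libraries Xbp1 was -0.21, Slc4a1 0.40, Sptb 1.86, Slc25a37 0.002, Tfrc 1.22, Car2 0.61, Notch2 -0.21, Hemgn 0.78, Ermap 1.44, Aqp1 1.08, Gm15816 1.07 and the erythroid median 0.70. With 1 library left out, the range was -0.627 to 0.936 for Sptb, -0.919 to 0.35 for Tfrc, -0.001 to 0.312 for Notch2, -1.501 to 0.057 for Hemgn, -0.506 to 0.691 for Ermap and -0.713 to 0.441 for Aqp1, in each the sign turned without spleen library 6. It was -0.085 to 0.248 for Xbp1 (turned without bone marrow library 4, and to -0.047 without spleen library 6), -0.24 to 0.135 for Hspa8 (spleen library 3) and -0.163 to 0.029 for Foxp3 (spleen library 5). The chemokine list median was 0.96 without members that have opposite-strand exons. The causes were not tested.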
